A study of Homo sapiens with 8 samples.

Results

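The 34 genes described here encode integrin subunits, the proteins of the focal adhesion and laminin chains, and were followed in C4-2 cells exposed to a biguanide. They were chosen by name, as the rows of the deposited expression table that carry these 34 symbols, and all 34 were found among its 57773 gene features. By role they fall into 7 groups: 6 integrin alpha subunits, 4 integrin beta subunits, 5 integrin activators and actin linkers, 6 kinases and adaptors, 3 genes of the complex of ILK, PINCH and parvin, 6 LIM-domain and actin-regulating plaque proteins, and 4 laminin chains.

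C4-2 is a human prostate cancer line derived from LNCaP cells that grows without androgen, and it was kept in T medium with heat-inactivated fetal bovine serum. The exposure lasted 24 h, with 3 libraries of PBS vehicle, 3 of 5 mM metformin and 2 of 1 mM phenformin, and messenger RNA was sequenced. Metformin and phenformin are both biguanides, a class known for slowing mitochondrial respiration, and they were used at different concentrations. The protocol text of the phenformin libraries names only PBS and metformin, so their exposure was taken from their titles and condition labels. All libraries are of 1 cell line, and no label says that replicates came from separate cultures, so p-values measure only the spread between these libraries.

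Integrins are paired receptors, 1 alpha with 1 beta subunit, that bind matrix proteins outside the cell and, through talin and kindlin, actin filaments inside it. Where they cluster, a plaque of adaptors forms, the focal adhesion, in which the kinases FAK and SRC phosphorylate paxillin and the Cas docking protein. LIM-domain proteins such as zyxin gather there on stretched actin. Laminins, trimers of an alpha, a beta and a gamma chain, form the sheet of the basement membrane on which epithelial cells sit, and bind integrins that contain ITGA3 or ITGA6. In the prostate these contacts anchor epithelial cells to the gland's basement membrane.

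Promoter sequence is shown for 5 genes, because the genes of the actin and adhesion plaque are known for 2 kinds of promoter motif: the CArG box bound by SRF, and GGAATG, bound by TEAD factors. ZYX and FERMT2 are shown as the genes with the largest tested rise with metformin, VCL as the linker with the highest level, and TES and LPP because they were the members whose promoters held a CArG box. The lines give the 250 bases before a RefSeq transcript start on GRCh38.p14, read 5′ to 3′ along the gene's strand, with CArG boxes and GGAATG (or CATTCC, its reverse complement) in capitals.
ZYX, chr7:143381095-143381344, plus strand: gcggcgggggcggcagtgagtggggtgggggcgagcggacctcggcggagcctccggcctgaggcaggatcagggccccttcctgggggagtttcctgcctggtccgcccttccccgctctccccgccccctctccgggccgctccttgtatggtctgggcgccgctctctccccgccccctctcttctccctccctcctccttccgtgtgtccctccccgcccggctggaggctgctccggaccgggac
FERMT2, chr14:52951051-52951300, minus strand: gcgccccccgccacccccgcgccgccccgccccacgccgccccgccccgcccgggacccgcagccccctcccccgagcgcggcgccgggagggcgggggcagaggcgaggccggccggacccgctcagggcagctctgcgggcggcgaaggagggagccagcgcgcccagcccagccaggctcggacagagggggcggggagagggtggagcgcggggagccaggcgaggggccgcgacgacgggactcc
VCL, chr10:73997866-73998115, plus strand: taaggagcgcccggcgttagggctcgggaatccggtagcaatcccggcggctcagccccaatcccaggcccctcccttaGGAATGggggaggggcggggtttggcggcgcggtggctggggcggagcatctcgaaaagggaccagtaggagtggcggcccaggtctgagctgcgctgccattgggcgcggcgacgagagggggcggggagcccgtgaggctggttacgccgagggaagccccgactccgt
TES, chr7:116222703-116222952, plus strand: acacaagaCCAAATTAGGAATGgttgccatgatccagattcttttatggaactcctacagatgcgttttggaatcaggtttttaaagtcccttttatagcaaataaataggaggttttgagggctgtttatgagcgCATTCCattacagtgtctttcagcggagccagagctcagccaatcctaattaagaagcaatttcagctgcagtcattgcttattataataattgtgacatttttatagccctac
LPP, chr3:188212462-188212711, plus strand: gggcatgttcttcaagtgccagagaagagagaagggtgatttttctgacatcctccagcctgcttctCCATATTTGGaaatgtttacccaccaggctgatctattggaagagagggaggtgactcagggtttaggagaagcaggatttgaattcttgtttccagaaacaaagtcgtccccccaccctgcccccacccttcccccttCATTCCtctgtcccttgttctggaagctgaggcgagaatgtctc
In the TES line the CArG box, which begins 242 bases before the start, and the first GGAATG, 234 bases before it, share the bases GG. TES and LPP have further starts in RefSeq, whose promoters held no CArG box. Of the 34 genes, 28 had an entry in the RefSeq table, with 48 promoters of 300 bases (250 before and 50 after the start). Searched on both strands, 2 of these 48 promoters (4.17%) held a CArG box, against 1.29% of all 35116 promoters in the table. GGAATG was in 9 promoters of 8 genes (18.8%), against 14.0% of all promoters, and these genes were ITGB1, ITGA5, VCL, PXN, LPP, TRIP6, TES and FLII. The ZYX and FERMT2 windows held neither set of letters. A match is a string in a window, and binding was not measured.

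Levels are given in RPKM, a read number divided by exon length and by the size of the library, so levels can be compared between genes. Whole reads recovered from the RPKM steps gave 13837455 to 15898491 reads in 7 libraries and 44774670 in PBS replicate 1, 2.93 times the median of the other 7. PBS replicate 1 stood apart in another way. Its reads were at least the sum of those of PBS replicates 2 and 3 in all 34 genes and in 21857 of 23481 features with a read in a PBS library. Its difference from that sum was 0.42 of the sampling noise, against 0.808 and 0.848 from PBS replicates 2 and 3 taken singly and 1.43 to 1.67 between the pairs of a group without it (a median squared difference over genes with 30 to 200 reads). In 691 features PBS replicate 2 or 3 had a read and replicate 1 had none. Libraries of separate reads differ by at least about the sampling noise, and PBS replicate 1 differed from the others by less. The 3 PBS libraries thus do not count as 3 independent ones. Whether the reads of replicate 1 include those of the other PBS libraries, in full or in part, cannot be told from the table. With such closeness the SD with PBS is too small, the intervals are too narrow and the adjusted p too low. Results that differ without it are given below. Luminal prostate markers were present throughout, with mean levels of KRT8 of 40.1, 42.9 and 42.1 RPKM and of KRT18 of 57.6, 66.0 and 75.8 RPKM with PBS, metformin and phenformin. The basal marker TP63, the endothelial marker CDH5 and the immune markers PTPRC and CD3E were at or near 0, and the highest marker of another cell type was COL1A1, a fibroblast gene, at 1.25, 1.24 and 2.67 RPKM. In bulk RNA a change in every cell and a change in part of the cells cannot be told apart. The use of strand in counting is not stated in the sources at hand. Values of FLII, ILK, LPP, PXN, TES, TLN1, TLN2 and VCL, whose exons overlap genes of the table on the other strand, and of ITGA1 and LAMA5, which overlap PELO and a microRNA gene on the same strand, are uncertain. So are those of LIMS1, which has near-identical copies.

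With metformin, most of the tested integrin genes fell and most of the tested plaque genes rose. Of the 30 genes with at least 1 RPKM in 3 of the 6 libraries, 15 rose, 10 fell and 5 did not pass the test (limma on log2(RPKM + 0.1), adjusted p under 0.05). Among all 11730 genes tested, 28.2% rose and 54.8% fell. The median log2 change was 0.17 over the 30 genes and -0.30 over all genes, so changes are also given relative to the median of all genes. After scaling each library to the median ratio of all genes, an alternative chosen after seeing the data, 21 of the 30 rose and 8 fell, against 40.7% and 41.1% of all genes. Without PBS replicate 1, 15 rose and 9 fell, against 26.4% and 51.9% of all genes. By role, 4 of 5 alpha subunits and 1 of 2 beta subunits tested fell and none rose. All 6 kinases and adaptors rose, as did 4 of 5 activators and linkers, 3 of 5 LIM-domain and actin-regulating genes and 1 of 3 genes of the ILK complex. Of the 4 laminin chains 3 fell and 1 rose. Among these falls, ITGA3 and LAMB1 entered the test only through their PBS libraries, the group where they were high.

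With phenformin, of the 30 genes tested 11 rose, 11 fell and 8 did not pass, where 31.2% of all 12172 genes rose and 45.4% fell (limma, all 8 libraries in 1 fit). The median log2 change was -0.04 over the 30 genes and -0.15 over all genes. With median-ratio scaling 14 rose and 9 fell, against 39.3% and 37.6% of all genes, and without PBS replicate 1 the counts were 11 and 10, against 29.6% and 42.4%. All 5 alpha subunits tested and 1 of 2 beta subunits fell. The activators and linkers gave 4 rises and 1 fall, the kinases and adaptors 3 and 1, the ILK complex 1 and 1, the LIM-domain and actin-regulating genes 2 and 0, and the laminin chains 1 and 2. Here too ITGA3 and LAMB1, counted among the falls, entered the test only through their PBS libraries. Both biguanides were compared with the same 3 PBS libraries, so the sets of values are not independent.

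**Figure D1:**
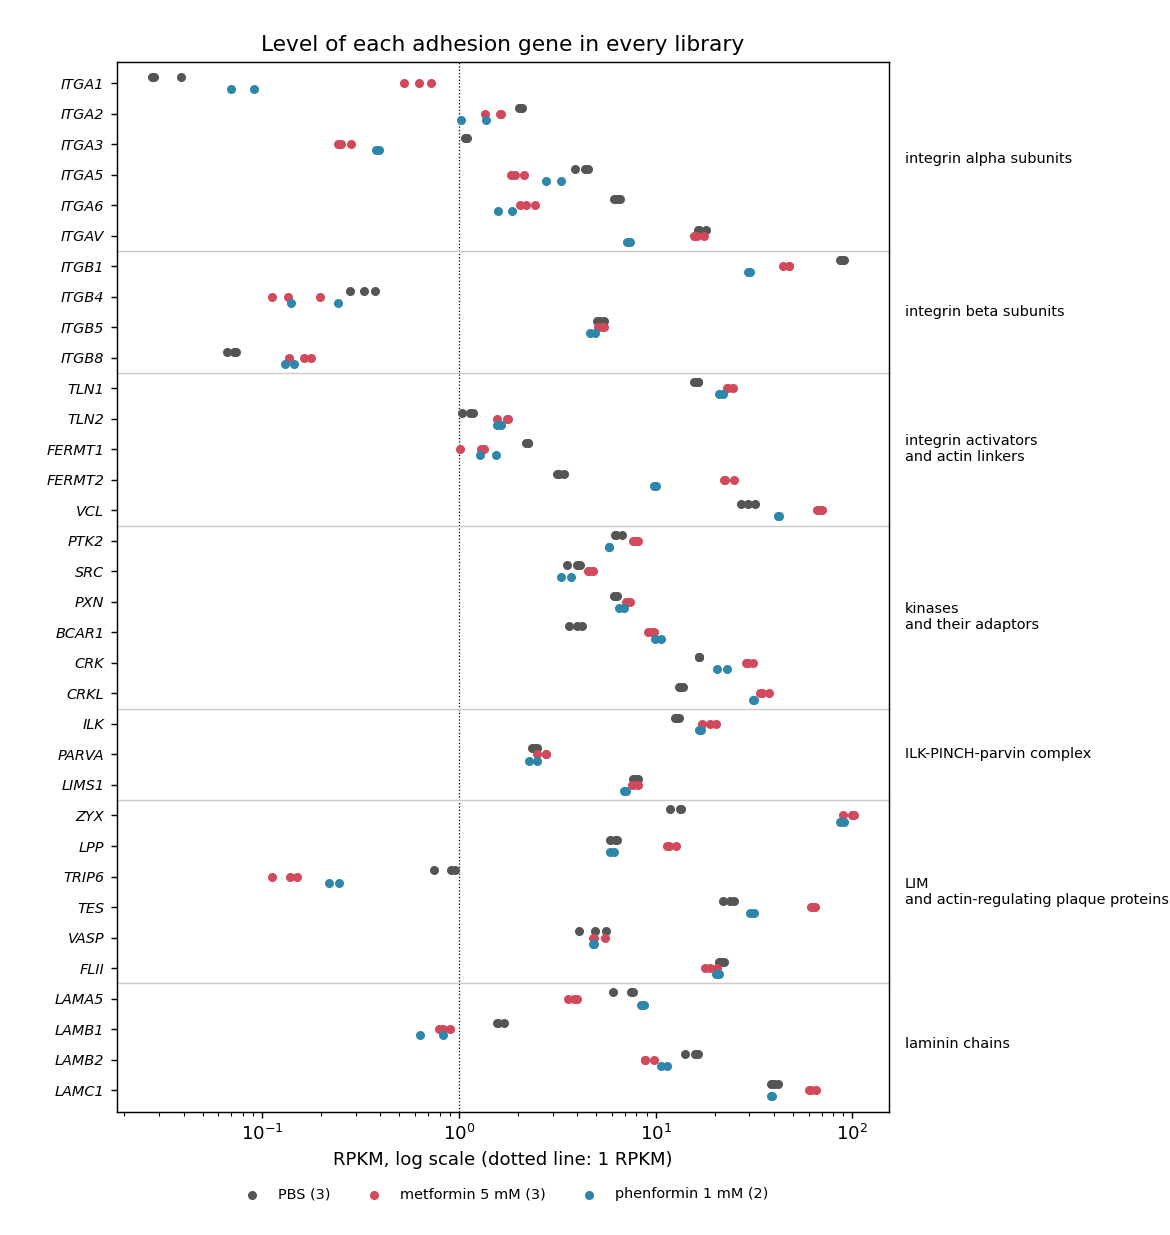
Level of each of the 34 genes in every library, in RPKM on a log scale, grouped by role. Grey points are the 3 PBS libraries, red the 3 metformin libraries and blue the 2 phenformin libraries, and the dotted line marks 1 RPKM. The ITGB1 points of the metformin and phenformin libraries lie left of the PBS points, and those of FERMT2 and ZYX lie right of them.

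**Figure D2:**
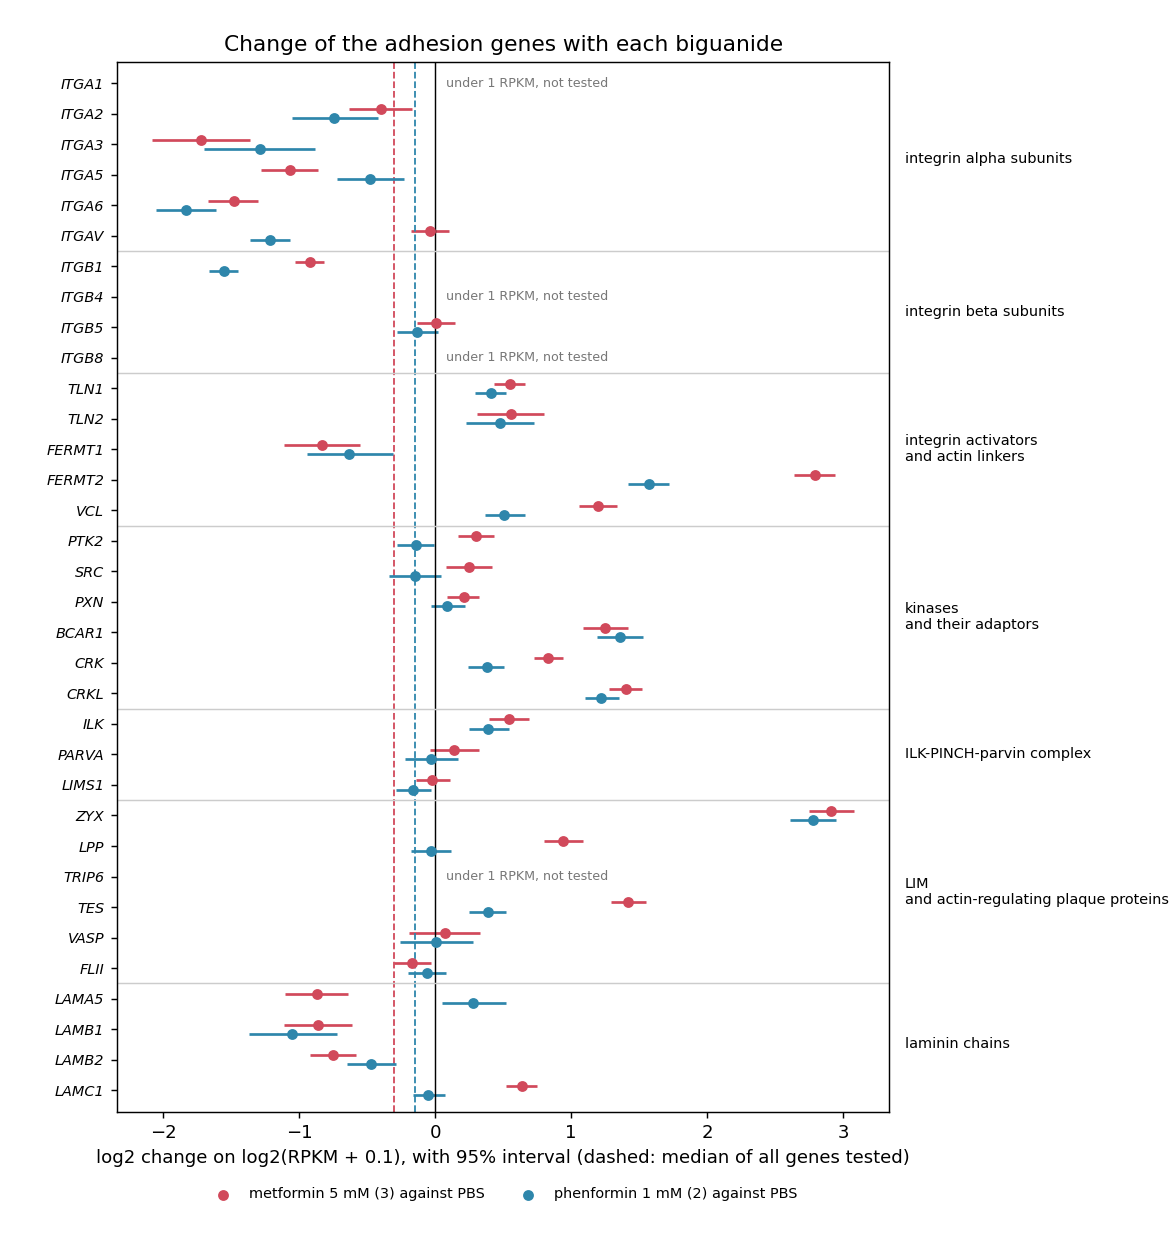
Change of each gene against PBS on the log2(RPKM + 0.1) scale, with 95% intervals from limma, for metformin (red, 3 libraries) and phenformin (blue, 2 libraries). Dashed lines mark the median change of all genes tested, -0.30 with metformin and -0.15 with phenformin, and genes under 1 RPKM have no point. FERMT2 and ZYX lie farthest right with both biguanides. ITGA3 and ITGA6 lie farthest left with metformin, and ITGA6 and ITGB1 with phenformin.

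ITGB1, which encodes the beta subunit shared by the largest number of integrins, was the most abundant of the 34 genes with PBS. Its level was 87.5, 90.3 and 86.1 RPKM in the PBS libraries, 47.4, 47.4 and 44.4 with metformin, and 29.5 and 30.2 with phenformin. The 3 groups did not overlap, with the metformin libraries all under the PBS libraries and the phenformin libraries under both. The log2 change was -0.92 (95% interval -1.03 to -0.82, limma adjusted p = 5.9e-07) with metformin and -1.55 (-1.66 to -1.45, limma adjusted p = 2.7e-08) with phenformin, or -0.62 and -1.40 relative to the median of all genes. ITGB5, a beta subunit that pairs with ITGAV to bind vitronectin, was at 5.49, 5.22 and 5.04 RPKM with PBS, 5.09, 5.34 and 5.48 with metformin and 4.65 and 4.94 with phenformin. Its metformin libraries lay within the spread of the PBS libraries and its phenformin libraries just under them. Neither change passed, at 0.01 (-0.13 to 0.15) with metformin and -0.13 (-0.28 to 0.02) with phenformin, and with median-ratio scaling the metformin change was 0.31 and passed. ITGB4, the partner of ITGA6 in hemidesmosomes, was under 1 RPKM in every library and not tested, at a mean of 0.329 RPKM with PBS, 0.148 with metformin and 0.191 with phenformin. ITGB8, an ITGAV partner that binds latent TGF-beta, was lower still, at 0.0708, 0.159 and 0.138 RPKM, with 14 to 49 reads a library, and was not tested. The summed level of the 4 beta subunits was 93.6 ± 2.22, 52.0 ± 1.49 and 35.0 ± 0.785 RPKM (SD, n = 3, 3 and 2), and the ITGB1 share of it was 94.0%, 89.2% and 85.4%.

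Among the tested alpha subunits, ITGAV differed most between the biguanide exposures. This subunit, which takes part in receptors for vitronectin and fibronectin, was at 16.6, 18.0 and 16.4 RPKM with PBS, 15.7, 17.7 and 16.3 with metformin, and 7.12 and 7.42 with phenformin. Metformin and PBS libraries overlapped, whereas both phenformin libraries lay under every other library. The log2 change was -0.04 (-0.18 to 0.10) with metformin, which did not pass (limma adjusted p = 0.574), and -1.21 (-1.36 to -1.07) with phenformin (limma adjusted p = 5.4e-07). Against the median of all genes the metformin change of ITGAV was 0.27, and with median-ratio scaling it was 0.26 and passed as a rise.

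ITGA6, a laminin receptor subunit, was at 6.37, 6.62 and 6.17 RPKM with PBS, 2.04, 2.20 and 2.43 with metformin, and 1.86 and 1.59 with phenformin. Both exposed groups lay under all PBS libraries without overlap. Its log2 changes were -1.48 (-1.67 to -1.30, limma adjusted p = 9.1e-07) and -1.83 (-2.05 to -1.61, limma adjusted p = 5.1e-07). ITGA5, which pairs with ITGB1 as the classical fibronectin receptor, was at 4.53, 4.39 and 3.89 RPKM with PBS, 1.85, 1.94 and 2.15 with metformin, and 2.78 and 3.32 with phenformin. The phenformin libraries lay between the other groups, and no group overlapped another. It changed by -1.07 (limma adjusted p = 1.1e-05) and -0.48 (limma adjusted p = 0.00335). On the TPM scale its phenformin change no longer passed.

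ITGA3, another laminin receptor subunit, was near the expression limit, at 1.08, 1.10 and 1.09 RPKM with PBS, 0.245, 0.253 and 0.284 with metformin, and 0.393 and 0.382 with phenformin. These rest on 29 to 48 reads in each exposed library, and all of them lay under the PBS libraries. The log2 change was -1.72 (-2.08 to -1.36) with metformin and -1.29 (-1.70 to -0.88) with phenformin. ITGA3 reached 1 RPKM only in the PBS libraries. It thus entered the test through the group where it was high, and no p-value is given. After quantile normalization the metformin change of ITGA3 was -0.30 and did not pass. ITGA2, a collagen receptor subunit, was at 2.04, 2.03 and 2.09 RPKM with PBS, 1.36, 1.64 and 1.62 with metformin, and 1.38 and 1.03 with phenformin. All exposed libraries were lower than all PBS libraries. Its change of -0.40 with metformin (limma adjusted p = 0.00602) was close to the median of all genes and did not pass with median-ratio scaling, where it was -0.10, and the phenformin change was -0.74 (limma adjusted p = 0.0011) and did not pass after quantile normalization, at -0.33.

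ITGA1, the other collagen receptor subunit of the set, was under 1 RPKM in every library and was not tested. It was at 0.0277, 0.0389 and 0.0282 RPKM with PBS, 0.631, 0.725 and 0.525 with metformin, and 0.0916 and 0.0700 with phenformin. The metformin libraries, with 138 to 214 reads each, lay far above the PBS libraries, with 8 to 23 reads, and the phenformin libraries, with 19 and 27, between them. The ratio of means was 19.8 with metformin and 2.56 with phenformin. Over the 6 alpha subunits the summed level was 30.8 ± 1.26 RPKM with PBS, 23.2 ± 1.29 with metformin and 13.7 ± 0.135 with phenformin (SD, n = 3, 3 and 2). ITGAV made up 55.1% of that sum with PBS, 71.4% with metformin and 53.0% with phenformin.

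**Figure D3:**
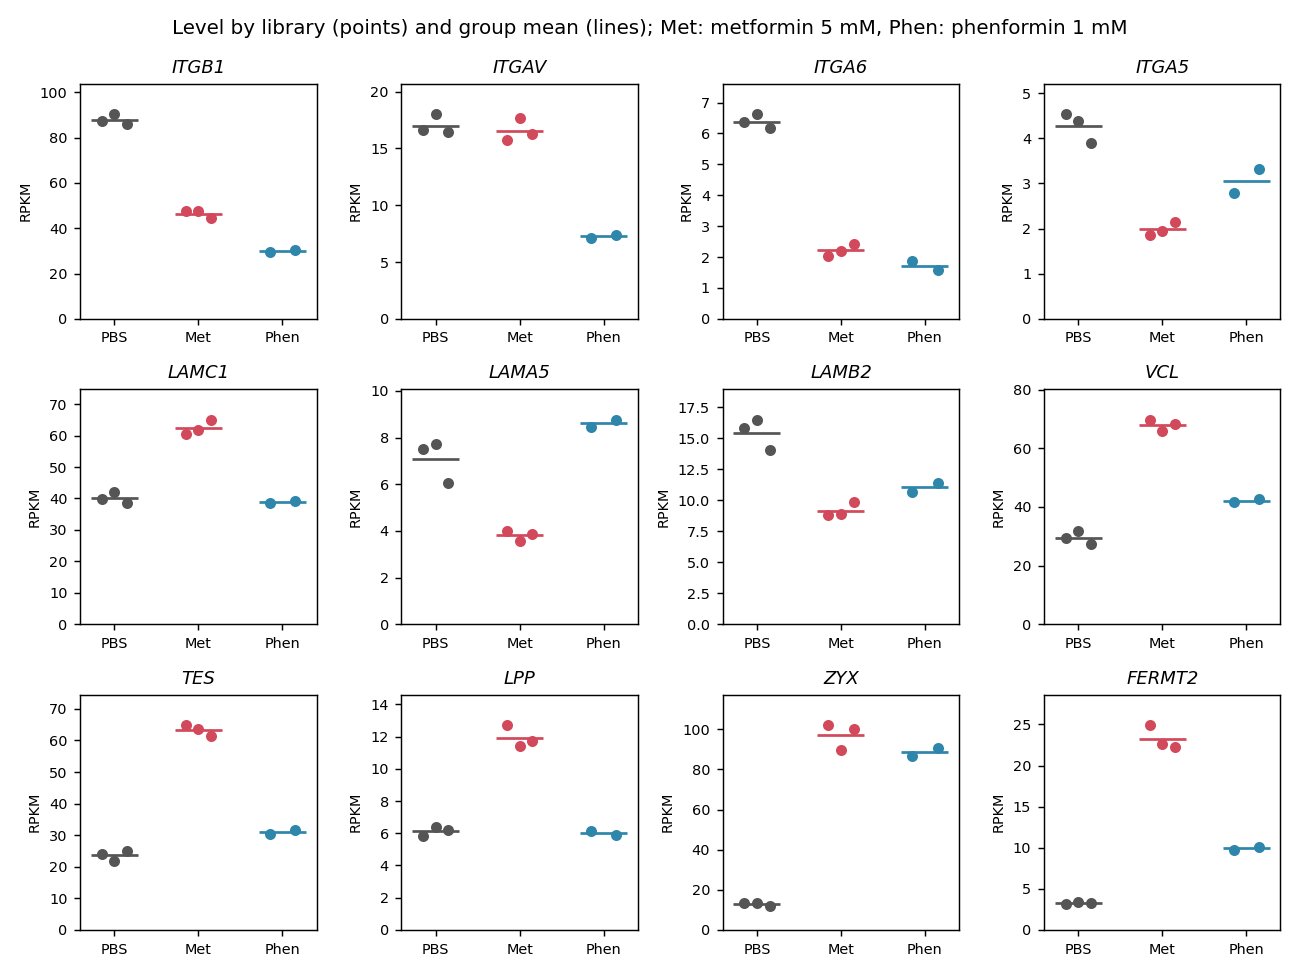
Level in RPKM, on linear axes from 0, of 12 genes in each library (points) with the group mean (lines), for PBS (3 libraries), metformin 5 mM (Met, 3) and phenformin 1 mM (Phen, 2). ITGAV, LAMC1 and LPP stand apart in 1 exposure each, ITGAV low with phenformin, and LAMC1 and LPP high with metformin.

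The kindlins, which activate integrins together with talin, moved in opposite directions. FERMT2, the kindlin gene of most adherent cells, was at 3.16, 3.44 and 3.22 RPKM with PBS, 24.9, 22.6 and 22.2 with metformin, and 9.78 and 10.1 with phenformin. No 2 groups overlapped, and the phenformin libraries lay between the others. It rose by 2.79 log2 (2.64 to 2.94) with metformin and 1.57 (1.42 to 1.72) with phenformin (limma adjusted p = 2.2e-08 and 1.5e-07). FERMT1, the kindlin gene typical of epithelia, was at 2.24, 2.24 and 2.21 RPKM with PBS, 1.01, 1.30 and 1.34 with metformin, and 1.54 and 1.29 with phenformin. All exposed libraries lay under the PBS libraries, with log2 changes of -0.83 and -0.63 (limma adjusted p = 2.7e-04 and 0.00277). Neither FERMT1 change passed after quantile normalization. The ratio of FERMT2 to FERMT1 level was thus 1.47 ± 0.065 with PBS, 19.5 ± 4.53 with metformin and 7.08 ± 1.03 with phenformin (SD, n = 3, 3 and 2).

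Vinculin, which VCL encodes and which ties talin to actin under load, was the linker with the highest level. VCL was at 29.5, 31.9 and 27.3 RPKM with PBS, 69.7, 66.0 and 68.3 with metformin, and 41.7 and 42.6 with phenformin. Again the phenformin libraries lay between groups that did not overlap. The rise was 1.20 log2 (1.06 to 1.34) with metformin and 0.51 (0.37 to 0.66) with phenformin (limma adjusted p = 7.4e-07 and 8.4e-05). TLN1, the main talin gene, was at 16.5, 16.5 and 15.6 RPKM with PBS, 23.0, 23.4 and 24.7 with metformin and 21.0 and 22.0 with phenformin. Every exposed library was above every PBS library, and the log2 changes were 0.55 and 0.41 (limma adjusted p = 1.5e-05 and 9.2e-05). TLN2, the second talin gene, was expressed at 1.12 ± 0.0731, 1.69 ± 0.117 and 1.60 ± 0.0551 RPKM and rose by 0.56 and 0.48 (limma adjusted p = 0.00131 and 0.00337). The TLN1 to TLN2 ratio stayed between 12.8 and 15.0 in all 8 libraries.

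Of the signalling genes, CRKL, BCAR1 and CRK changed most. CRKL, an SH2 and SH3 adaptor that binds phosphorylated paxillin and Cas, was at 13.3, 13.1 and 13.8 RPKM with PBS, 37.7, 34.8 and 34.0 with metformin, and 31.5 and 31.3 with phenformin. Its close relative CRK was at 16.7, 16.7 and 16.6 RPKM with PBS, 31.1, 29.5 and 28.9 with metformin and 20.4 and 23.0 with phenformin. Both genes were higher in every exposed library than in any PBS library. CRKL rose by 1.40 and 1.22 log2 (limma adjusted p = 1.8e-07 for each), and CRK by 0.83 and 0.38 (limma adjusted p = 9.2e-07 and 3.6e-04). BCAR1, the gene of the Cas docking protein, was at 4.22, 4.0 and 3.62 RPKM with PBS, 9.60, 9.12 and 9.86 with metformin, and 9.93 and 10.6 with phenformin. Here the phenformin libraries were the highest. BCAR1 rose by 1.25 (1.09 to 1.42) and 1.36 (1.19 to 1.53) log2 (limma adjusted p = 1.2e-06 and 6.1e-07).

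PTK2, which encodes FAK, was at 6.26, 6.74 and 6.22 RPKM with PBS, 7.83, 7.68 and 8.18 with metformin, and 5.78 and 5.80 with phenformin. The metformin libraries lay above and the phenformin libraries below the PBS libraries. The log2 change was 0.30 (0.17 to 0.43, limma adjusted p = 0.00134) with metformin. With phenformin it was -0.14 (-0.28 to -0.01, limma adjusted p = 0.0495), a call that was lost when any of 6 libraries was left out, among them PBS replicate 1 (limma adjusted p = 0.0774), and that turned to 0.03 with median-ratio scaling. SRC was at 4.0, 4.14 and 3.56 RPKM with PBS, 4.57, 4.56 and 4.79 with metformin, and 3.29 and 3.71 with phenformin. Only its metformin change passed, at 0.25 (limma adjusted p = 0.0129), against -0.15 (-0.34 to 0.04) with phenformin. The phenformin change of SRC passed at -0.21 without PBS replicate 3 (limma adjusted p = 0.0393), and its metformin change did not pass with PBS replicate 1 reduced to its reads beyond the other 2. PXN, the paxillin gene, was expressed at 6.29 ± 0.112, 7.28 ± 0.176 and 6.72 ± 0.326 RPKM, and rose by 0.21 with metformin (limma adjusted p = 0.00499), with 0.09 (-0.03 to 0.22) for phenformin. With median-ratio scaling the phenformin change of PXN was 0.26 and passed.

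ILK, PINCH and parvin form a complex that links beta integrin tails to actin. ILK was at 12.8, 13.2 and 12.5 RPKM with PBS, 20.2, 18.8 and 17.3 with metformin, and 16.7 and 17.1 with phenformin. All exposed libraries were above the PBS libraries, with log2 changes of 0.54 and 0.39 (limma adjusted p = 7.3e-05 and 5.2e-04). Its partners among the members moved less. PARVA, a parvin gene, was expressed at 2.43 ± 0.0675, 2.69 ± 0.171 and 2.39 ± 0.157 RPKM, and its changes of 0.14 (-0.04 to 0.32) and -0.03 (-0.22 to 0.17) did not pass. PARVB, a parvin gene that is not a member, had a higher level, at means of 6.21, 3.77 and 4.71 RPKM. It fell, with log2 changes of -0.71 with metformin and -0.39 with phenformin (limma adjusted p = 3.4e-05 and 0.00173). LIMS1, a PINCH gene, was expressed at 7.88 ± 0.270, 7.80 ± 0.330 and 7.03 ± 0.102 RPKM, with changes of -0.02 (-0.14 to 0.11) and -0.16 (-0.29 to -0.03). Only the phenformin change of LIMS1 passed (limma adjusted p = 0.0267), and it did not without PBS replicate 3 (adjusted p = 0.0679) or without phenformin replicate 1 or 2 (adjusted p = 0.121 and 0.0722). With PBS replicate 1 reduced to its reads beyond the other 2, the phenformin change of LIMS1 was -0.13 and did not pass (limma adjusted p = 0.157). Set against all genes, the metformin changes of PARVA and LIMS1 were 0.44 and 0.29, and both passed as rises with median-ratio scaling.

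ZYX, the gene of the mechanosensitive LIM protein zyxin, changed more with metformin than any other tested member. It was at 13.5, 13.3 and 11.8 RPKM with PBS, 102, 89.9 and 100 with metformin, and 86.9 and 90.5 with phenformin. The exposed libraries overlapped each other and lay far above the PBS libraries. ZYX rose by 2.91 log2 (2.75 to 3.08) with metformin and 2.78 (2.61 to 2.95) with phenformin (limma adjusted p = 3.0e-08 and 1.9e-08), and went from rank 11 of the 34 genes by mean level with PBS to rank 1 in both exposed groups. The ZYX to ITGB1 ratio was 0.146 ± 0.00882 with PBS, 2.11 ± 0.188 with metformin and 2.97 ± 0.0335 with phenformin, and that of VCL to ITGB1 was 0.336 ± 0.0180, 1.47 ± 0.0718 and 1.41 ± 0.0034 (SD, n = 3, 3 and 2).

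TES, which encodes testin, a zyxin partner, was at 23.9, 21.9 and 25.1 RPKM with PBS, 64.8, 63.7 and 61.5 with metformin, and 30.3 and 31.5 with phenformin. The groups did not overlap, and the phenformin libraries lay closer to PBS. LPP, a LIM protein of the zyxin family, was at 5.85, 6.39 and 6.22 RPKM with PBS, 12.7, 11.4 and 11.7 with metformin, and 6.16 and 5.88 with phenformin. For LPP the phenformin libraries overlapped the PBS libraries. With metformin TES rose by 1.42 and LPP by 0.94 log2 (limma adjusted p = 2.6e-07 and 2.9e-06). With phenformin TES rose by 0.39 (limma adjusted p = 3.7e-04), and LPP had a change of -0.03 (-0.18 to 0.12) that did not pass. TES and LPP were also the members with a CArG box in a promoter line above.

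TRIP6, the other zyxin family gene of the set, lay in the opposite direction from ZYX and LPP. It was at 0.956, 0.748 and 0.912 RPKM with PBS, 0.139, 0.112 and 0.151 with metformin, and 0.247 and 0.220 with phenformin. The groups did not overlap, and the exposed libraries held 5 to 11 reads each against 29 to 120 with PBS. Being under 1 RPKM in every library, TRIP6 was not tested. The ratio of means was 0.154 with metformin and 0.268 with phenformin. VASP, which promotes actin filament elongation, was expressed at 4.86 ± 0.743, 5.07 ± 0.383 and 4.86 ± 0.0403 RPKM, and its changes of 0.07 (-0.19 to 0.33) and 0.01 (-0.26 to 0.28) did not pass, although with median-ratio scaling the metformin change was 0.37 and passed. FLII, an actin-remodelling gelsolin relative, was expressed at 21.5 ± 0.628, 19.1 ± 1.30 and 20.6 ± 0.464 RPKM. FLII fell by 0.17 with metformin (limma adjusted p = 0.026), less than the median of all genes. The call was lost without PBS replicate 1 or 2 (adjusted p = 0.0951 and 0.0558) or metformin replicate 1 or 2 (adjusted p = 0.0663 and 0.0661), and median-ratio scaling turned it to 0.13.

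The 4 laminin chains did not move together. LAMC1, the gamma chain of most laminins, was the most abundant of them, at 39.9, 42 and 38.6 RPKM with PBS, 60.5, 61.8 and 65.0 with metformin, and 38.5 and 39.1 with phenformin. Only the metformin libraries stood apart, above all others. LAMC1 rose by 0.64 (0.52 to 0.75, limma adjusted p = 7.0e-06) with metformin and had a change of -0.05 (-0.16 to 0.07) with phenformin, which turned to a rise of 0.12 that passed with median-ratio scaling. LAMA5, an alpha chain of adult epithelial basement membranes, was at 7.51, 7.72 and 6.05 RPKM with PBS, 3.99, 3.58 and 3.86 with metformin, and 8.45 and 8.76 with phenformin. Its metformin libraries were the lowest and its phenformin libraries the highest, with no overlap between groups. LAMA5 changed by -0.87 (-1.10 to -0.64, limma adjusted p = 6.4e-05) with metformin and by 0.28 (0.05 to 0.52, limma adjusted p = 0.0335) with phenformin. With PBS replicate 1 reduced to its reads beyond the other 2, the phenformin change was 0.21 and did not pass (limma adjusted p = 0.203). The phenformin call was lost without PBS replicate 3 (0.17, adjusted p = 0.051) and without phenformin replicate 1 or 2 (adjusted p = 0.0839 and 0.139).

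Both beta chains fell. LAMB2 was at 15.8, 16.5 and 14.1 RPKM with PBS, 8.80, 8.87 and 9.84 with metformin, and 10.7 and 11.4 with phenformin. LAMB1 was at 1.57, 1.70 and 1.58 RPKM with PBS, 0.903, 0.796 and 0.832 with metformin, and 0.635 and 0.832 with phenformin. In both genes the exposed libraries all lay under the PBS libraries. LAMB2 changed by -0.75 and -0.47 log2 (limma adjusted p = 2.6e-05 and 5.3e-04) and LAMB1 by -0.86 and -1.05. LAMB1 reached 1 RPKM only in the PBS libraries, the group where it was high, so no p-value is given for it. The metformin change of LAMB1 did not pass after quantile normalization. The ratio of LAMC1 to LAMA5 level was 5.71 ± 0.582 with PBS, 16.4 ± 1.10 with metformin and 4.51 ± 0.0626 with phenformin (SD, n = 3, 3 and 2). LAMA3, an alpha chain that is not a member, had a higher level than LAMA5, at means of 22.8, 24.7 and 29.9 RPKM. Its log2 change was 0.12 (-0.02 to 0.25) with metformin, which did not pass, and 0.39 with phenformin (limma adjusted p = 3.8e-04). With median-ratio scaling the metformin change of LAMA3 was 0.42 and passed.

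Between the exposed groups, phenformin minus metformin, 3 of the 30 genes were higher with phenformin, 14 were lower and 13 did not pass, where 39.5% of all 12172 genes tested were higher and 25.6% lower (limma). The median difference was -0.16 log2 over the 30 genes and 0.13 over all genes. With median-ratio scaling 2 were higher and 20 lower, against 31.4% and 33.4% of all genes, and without PBS replicate 1 the counts were 3 and 12, against 37.4% and 24.2%. Since 1 mM phenformin was set against 5 mM metformin, these differences are between the exposures as given, and compound and concentration cannot be told apart.

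Lower with phenformin by the most were FERMT2 at -1.22 (-1.37 to -1.07), ITGAV at -1.18 (-1.32 to -1.03), TES at -1.03 (-1.17 to -0.89) and LPP at -0.97 (-1.13 to -0.82) (limma adjusted p = 3.3e-06, 3.5e-06, 4.3e-06 and 7.4e-06). They were followed by VCL at -0.69, LAMC1 at -0.68, ITGB1 at -0.63, CRK at -0.46, PTK2 at -0.44 and SRC at -0.40. ITGA6 at -0.35 was no longer called without phenformin replicate 2 (adjusted p = 0.107), and CRKL at -0.18 without phenformin replicate 1 or 2 (adjusted p = 0.0722 and 0.0816). TLN1 at -0.14 and LIMS1 at -0.15 (limma adjusted p = 0.037 and 0.0469) lost the call in 8 and 10 of 20 alternatives, and without PBS replicate 1 their adjusted p was 0.0601 and 0.0765. Higher with phenformin were LAMA5 at 1.16 (0.92 to 1.39), ITGA5 at 0.59 (0.35 to 0.84) and LAMB2 at 0.27 (0.09 to 0.45) (limma adjusted p = 2.7e-05, 0.00138 and 0.0144). The LAMB2 call was lost without phenformin replicate 2 (adjusted p = 0.101) and with median-ratio scaling, where the difference was 0.14 (adjusted p = 0.0918).

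For other genes the test did not separate the exposures, with intervals that leave room for modest differences. ZYX had a difference of -0.13 (-0.31 to 0.04), BCAR1 of 0.10 (-0.07 to 0.27), TLN2 of -0.08 (-0.33 to 0.17) and FERMT1 of 0.21 (-0.11 to 0.52). ZYX was called at -0.19 without metformin replicate 2 (adjusted p = 0.0411) and with median-ratio scaling at -0.26. ITGA2 at -0.34 (-0.65 to -0.03) and ITGA3 at 0.44 (0.03 to 0.85) were just outside the limit (limma adjusted p = 0.0565 and 0.0599). ITGA2 passed without metformin replicate 1 or phenformin replicate 1 (adjusted p = 0.0311 and 0.0154). ILK at -0.15 and FLII at 0.11 passed only without metformin replicate 3 among the libraries left out in turn (adjusted p = 0.013 and 0.0313). With median-ratio scaling ITGA2 at -0.47, PARVA at -0.29, ILK at -0.28, ITGB5 at -0.27 and PXN at -0.24 passed as lower with phenformin.

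**Figure D4:**
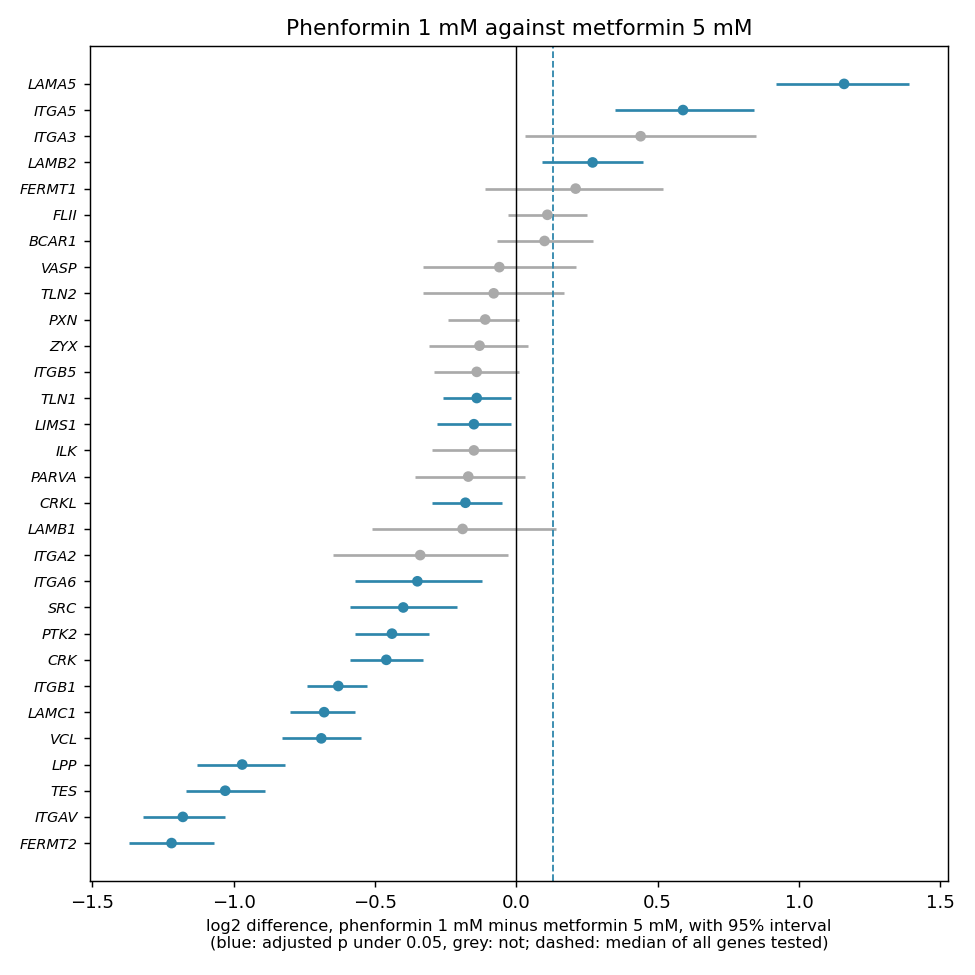
Difference between the exposed groups, phenformin 1 mM (2 libraries) minus metformin 5 mM (3 libraries), on the log2(RPKM + 0.1) scale for the 30 tested genes, ordered by size, with 95% intervals from limma. Blue genes passed the test and grey genes did not, and the dashed line is the median of all genes tested, 0.13. LAMA5 is at the top at 1.16 and FERMT2 at the bottom at -1.22.

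The rest of the adhesion machinery was covered by 4 further lists of 90 genes, 89 of them in the table. With metformin 13 of the 38 tested rose and 21 fell, with a median log2 change of -0.34, or -0.04 relative to all genes. With phenformin 11 of 40 tested rose and 18 fell, with a median of -0.13, or 0.02 relative to all genes. With median-ratio scaling 16 rose and 15 fell with metformin, and 16 and 16 with phenformin. Among other plaque proteins 12 of 28 rose and 13 fell with metformin, and 8 and 11 of 29 with phenformin, but with median-ratio scaling these were 14 and 9, and 13 and 9. Of all genes, as given above, 28.2% rose and 54.8% fell with metformin, and 31.2% and 45.4% with phenformin. With median-ratio scaling these shares were 40.7% and 41.1% with metformin, and 39.3% and 37.6% with phenformin. Among genes of the basement membrane and other integrin ligands 1 of 7 rose and 6 fell with metformin, and 1 and 7 of 8 with phenformin. Of 15 other integrin subunits 1 reached the expression limit, and of 8 other laminin chains 2 did.

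By the rule on size of change, 10 of these genes are named. FHL2, a LIM-only protein of adhesions and the nucleus, was at 0.0506, 0.0436 and 0.0692 RPKM with PBS, 5.88, 5.22 and 5.94 with metformin, and 0.951 and 1.32 with phenformin. With 4 to 15 reads a library, it was close to absent with PBS, and its log2 changes were 5.23 and 2.99. FHL2 reached 1 RPKM only in exposed libraries. It thus entered the test through the group where it was high, and no p-value is given. FLNA, the actin crosslinker filamin, rose by 1.20 and 0.92, and PTPN12, a phosphatase that acts on Cas and paxillin, by 1.16 and 0.56. EVL, a relative of VASP, changed by -2.34 and -1.74, DOCK1, which activates RAC downstream of Cas and CRK, by -1.19 and -1.10, and CD151, a tetraspanin that binds laminin receptors, by -1.07 and -0.96.

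Among matrix genes, THBS1, the gene of thrombospondin, an integrin ligand, was at 9.73 ± 0.608, 37.5 ± 2.99 and 18.0 ± 0.652 RPKM and rose by 1.94 and 0.88 log2. COL4A5, a basement membrane collagen chain, was at 24.4 ± 1.48, 9.15 ± 0.541 and 11.4 ± 0.253 RPKM and changed by -1.41 and -1.09. AGRN, a laminin-binding proteoglycan, was at 9.23 ± 0.978, 3.46 ± 0.160 and 6.26 ± 0.372 RPKM, with -1.38 and -0.55. DAG1, the gene of dystroglycan, a laminin receptor outside the integrin family, was at 35.4 ± 2.45, 14.0 ± 1.27 and 14.5 ± 0.622 RPKM, with -1.34 and -1.28. Passing with metformin was a condition for naming these 10 genes, so it is no further support for their change. The phenformin changes other than that of FHL2 also passed (limma adjusted p from 9.6e-07 to 6.1e-04), against the same PBS libraries.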

How the data were processed

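TruSeq messenger RNA libraries of C4-2 cells after 24 h of PBS (3), 5 mM metformin (3) or 1 mM phenformin (2) were run on an Illumina HiSeq 2500. Mapping and counting by the authors used CLC Genomics Workbench 7.0, with GRCh37.p13 per the submitters' notes, and they deposited RPKM values, scaled to exon length and library reads. No scaling between libraries is stated. Annotation release and strand use: not given in the sources used here. The reference at hand is GRCh38, so no coordinates are given for the measured features, and those of promoters are from RefSeq on GRCh38.p14.

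Groups followed the sample labels. Reads recovered from the RPKM steps were whole within 0.01 read in 100% of the 25529 features above 0, with 13837455 to 44774670 reads a library. RPKM values were tested on log2(RPKM + 0.1), which understates changes of low genes, with lmFit and eBayes (trend) in limma 3.58.1 (R 4.3.3) and Benjamini-Hochberg adjustment over all genes tested, limit 0.05. Metformin was compared with PBS in 6 libraries, over genes of at least 1 RPKM in 3, and phenformin with PBS and with metformin in all 8, over genes of at least 1 RPKM in 2. Intervals are 95% intervals of the fit. Other steps used Python 3.11.15, pandas 2.3.3 and numpy 2.4.6. The procedure was tested on simulated data.

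The members and lists were chosen with earlier results of these data known. Every member is named. From the other lists up to 3 genes each way are named, those with the largest metformin change past the test, with a mean of at least 5 RPKM in the higher group and no overlap of libraries. The alternatives were pseudocounts, filters, 4 scalings, tests, recovered reads with limma-voom, a replicate block, other library sets, PBS replicate 1 reduced to its reads beyond the other 2, and each library left out.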

Additional observations from a re-analysis of the deposited data

How the results depend on the processing

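Calls of 19 of the 30 tested members were the same under all alternatives run for metformin, 17 for phenformin and 16 between the exposures. Changes of sign are listed where either value passed the test. With metformin they were ITGA2 (0.19 after quantile normalization), ITGAV (0.26 with median-ratio scaling, 0.23 on the TPM scale), LIMS1 (0.17 with median-centred libraries, 0.28 and 0.25) and FLII (0.02, 0.13 and 0.10 in the same order). With phenformin they were, under median-ratio scaling and on the TPM scale, PTK2 (0.03, 0.12), LIMS1 (0.01, 0.10), FLII (0.11, 0.21) and LAMC1 (0.12, 0.22), on the TPM scale LPP (0.23) and PARVA (0.23), and after quantile normalization PARVA (0.33). SRC and ITGB5 with phenformin reached 0.11 and 0.13 on other scales, and neither these values nor the changes of -0.15 and -0.13 they replace passed. Counts moved most with a mean of at least 5 RPKM, where fewer genes were tested. With metformin 3300 of all genes, 4 members and 9 other adhesion genes were then lower. With phenformin 2638 of all genes, 4 members and 9 other genes were lower and 6 other genes higher, and between the exposures 2876 of all genes and 7 other genes were higher. Members lower were 6 and 7 after quantile normalization, with metformin and phenformin. With no filter 40 and 34 other genes were lower, and on the TPM scale 17 members and 17 other genes were higher with phenformin. The cause of these moves was not tested. Shares of all genes called under these settings are not given here, so these counts are no result about the members. With each library left out in turn, the metformin call changed for FLII alone among the members. For phenformin and between the exposures, the calls that changed are given with the genes above. Where 1 phenformin library remained, it was assumed to vary like the other groups. Same-numbered PBS and metformin libraries did not deviate together (r = 0.00641, -0.0152 and -0.0565 over 12172 genes). No pairing by number was thus seen, but deviations around a mean of 3 libraries cannot exclude it. With the replicate number as a block, calls of all 30 tested members were unchanged with metformin. With phenformin 3 members lost the call, and between the exposures 2 lost and 1 gained it. Read numbers limit the ratios of ITGA1 and TRIP6, which rest on 8 to 23 reads a library with PBS and on 5 to 11 with a biguanide.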
